A study of Mus musculus with 6 samples.

Results

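The nuclear genes of respiratory complexes II to V were read in RNA sequencing of mouse hearts. The set holds every gene of the deposited count table named Sdha, Sdhb, Sdhc, Sdhd, Cyc1 or Cycs, or with a symbol that starts with Uqcr, with Cox followed by a digit from 4 to 8, or with Atp5. Pseudogene symbols (ending in -ps, 7 rows) were left out. The rule found 51 of the 50385 genes in the table: 4 of complex II, 10 of complex III with cytochrome c, 19 of complex IV and 18 of complex V. Of these, 48 passed the filter on low counts and were tested. The testis isoform Cox8c and a second entry for Atp5o were at 0 in every library, and Cox7b2 held 12 counts in 1 vehicle library and 0 in the others.

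The hearts came from male Mdx/Utrn dKO mice, which lack dystrophin and its relative utrophin and serve as a model of Duchenne muscular dystrophy. Treatment began at an age of 2 to 3 months. In the first group (3 libraries), mice received a daily oral dose of 60 mg/kg setanaxib, which inhibits Nox4, by gavage over 12 weeks. In the second (3 libraries), mice of the same genotype received corn oil as vehicle by the same route and for as long. Both groups carry the double knockout, and wild-type hearts are not analysed here. The series was set up to ask what part Nox4 plays in dystrophic cardiomyopathy, and its only comparison is setanaxib against vehicle. The labels number the libraries but do not call them separate animals, so p-values measure the spread between libraries.

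Complexes II, III and IV pass electrons from succinate and ubiquinone through cytochrome c to oxygen, and complexes III and IV pump protons across the inner mitochondrial membrane. Complex V, the ATP synthase, lets protons flow back and makes ATP. Apart from complex II, whose subunits are all nuclear, each of these complexes joins nuclear subunits to subunits encoded by the mitochondrial genome, and the heart, which beats without rest, holds a large mitochondrial mass. Several complex IV subunits have a heart and skeletal muscle isoform beside a more widely expressed one.

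Libraries held 110803307 to 142693848 estimated counts in the setanaxib group and 121014814 to 154003318 in the vehicle group. All 12 cardiomyocyte markers examined were present in every library. Levels are given as CPM, counts scaled to a common library size by the trimmed mean of M values (TMM), unless another scale is named. The TMM factors were 0.892, 0.961 and 1.19 in setanaxib replicates 1, 2 and 3 and 0.949 to 1.03 in the vehicle libraries. Setanaxib replicate 3 stood apart from the other libraries. It held 637 CPM of Myl7 and 609 CPM of Myl4, atrial myosin light chains, against at most 1.33 and 1.85 CPM in the other setanaxib libraries and at most 23.3 and 23.9 CPM in the vehicle libraries. The atrial peptide Nppa stood at 1668 CPM there, against 64.9 and 105 CPM in setanaxib replicates 1 and 2 and 121 to 523 CPM in the vehicle libraries. Over all genes, the chi-square of counts per degree of freedom between a pair of libraries was 217 to 356 for setanaxib replicate 3 with each vehicle library, 172 to 237 for setanaxib replicate 1, 76.4 to 98.6 for setanaxib replicate 2 and 38.3 to 85.6 among the vehicle libraries. Setanaxib replicate 1 was thus also further from the vehicle libraries than those were from each other. Results that rest on setanaxib replicate 3 are given with and without it.

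By count, 3 genes carried much of the set. They were Atp5b and Atp5a1, the catalytic beta and the alpha subunit of the F1 head, and Cox6a2, the muscle isoform of subunit 6a. Together they took 35.9% of the summed CPM of the set. Summed over the set, counts made 1.44%, 1.48% and 1.35% of all counts in setanaxib replicates 1, 2 and 3, against 1.34%, 1.36% and 1.37% in vehicle replicates 1, 2 and 3. Setanaxib replicates 1 and 2 were above every vehicle library in this share, and setanaxib replicate 3 lay among them.

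Per kilobase of transcript, Cox6a2 was the highest gene of the set, at 2215 CPM per kb in the setanaxib group and 2088 in the vehicle group (means of 3 libraries each). Atp5b followed with 974 in the setanaxib and 886 in the vehicle group, then Atp5g3, a c-ring subunit, with 752 in the setanaxib and 732 in the vehicle group, and Atp5a1 with 739 in the setanaxib and 697 in the vehicle group. The libraries of Atp5g3 and Atp5a1 overlapped, and which transcripts are in use here is not known, so their order is uncertain. In complex II the iron-sulfur subunit Sdhb was highest with 326 CPM per kb in the setanaxib and 321 in the vehicle group. In complex III the small subunit Uqcr10 was highest with 353 CPM per kb in the setanaxib and 336 in the vehicle group. Both of these places rest on the transcript lengths used. By CPM, Sdha was highest in complex II, with means of 611 in the setanaxib and 560 in the vehicle group, against 372 and 367 for Sdhb. In complex III the highest by CPM was Uqcrc1, with 462 in the setanaxib and 468 in the vehicle group, against 153 and 146 for Uqcr10. At the low end, Cox4i2, a second isoform of subunit 4, had 5.74 CPM per kb in the setanaxib and 5.70 in the vehicle group. The testis isoform Cox6b2 had 2.65 in the setanaxib and 1.63 in the vehicle group, and Cox6c2, a relative of Cox6c, 0.557 in the setanaxib and 0.421 in the vehicle group.

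**Figure D1:**
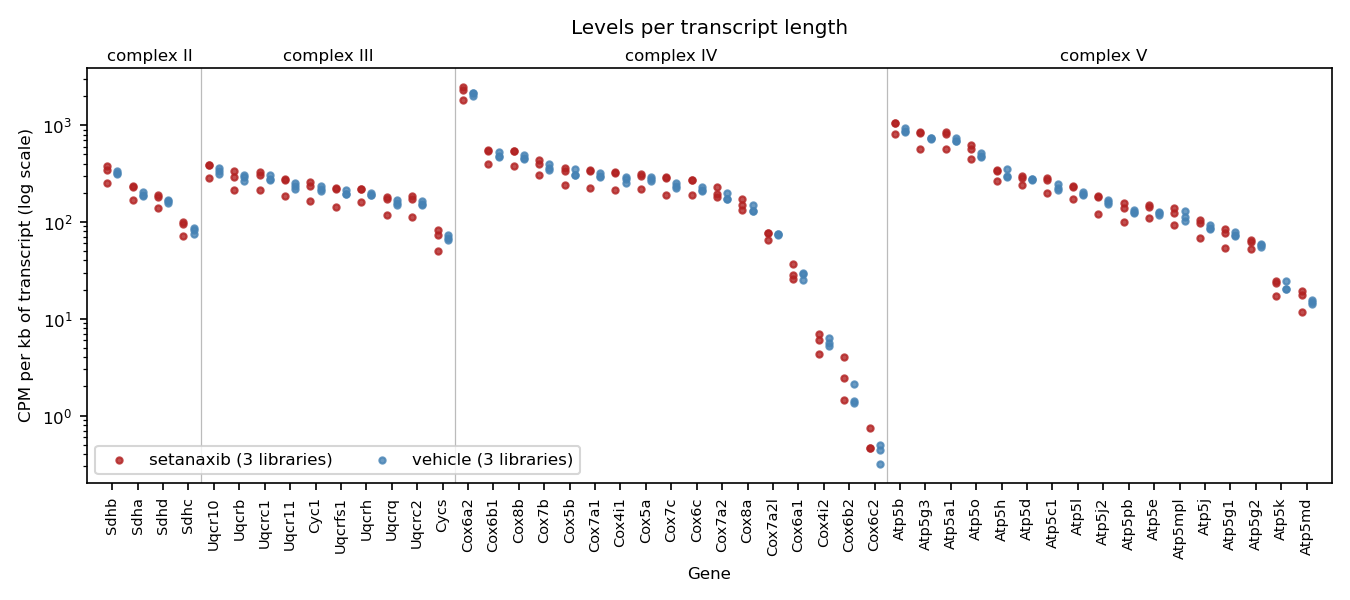
Levels of the 48 tested genes in CPM per kb of transcript (log axis), by complex, with 3 setanaxib libraries (red) left of 3 vehicle libraries (blue) for each gene. Cox6a2 stands above all others and Cox6c2 lowest, and the groups overlap for every gene.

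No gene of the set passed the test of setanaxib against vehicle. By edgeR's quasi-likelihood test with Benjamini-Hochberg adjustment over 20472 genes, 0 of 48 passed 0.05, and the test called 0.00488% of all genes. At an unadjusted p under 0.05 the set again had 0 of 48, against 8.46% of all genes (3.76% higher and 4.69% lower in the setanaxib group). The groups overlapped for all 48, while 17.6% of all genes had groups that did not overlap. The smallest adjusted p of the set was 0.716, and DESeq2 and limma-voom also called 0 of 48, beside 2.41% and 0% of all genes. Log2 fold changes, setanaxib minus vehicle, ran from −0.05 to 0.70 with a median of 0.05, beside a median of 0.01 over all genes tested, and 36 were above 0 and 12 below. Their standard errors had a median of 0.17, and the fitted difference was smaller than 1 standard error for every tested gene of the set except Cox6b2, Cox8a, Cox7a2 and Atp5o.

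The setanaxib libraries differed widely among themselves. The SD of CPM was larger among the setanaxib than among the vehicle libraries for all 48 genes, against 74.9% of all genes. Setanaxib replicate 3 was the lowest of the 6 libraries for 43 of 48 genes (89.6%), where 23.9% of all genes were lowest there. Setanaxib replicates 1 and 2 were both above all 3 vehicle libraries for 34 of 48 genes (70.8%), where 15.7% of all genes were. Setanaxib replicate 1 was the highest library for 39 genes, setanaxib replicate 2 for 5, setanaxib replicate 3 for 3 and a vehicle library for 1, the stalk subunit Atp5h; of all genes, 26.3% were highest in setanaxib replicate 3. The median over the 48 genes of the log2 level over the vehicle mean was 0.23, 0.15 and −0.30 in setanaxib replicates 1, 2 and 3, and −0.03, 0.08 and −0.06 in vehicle replicates 1, 2 and 3.

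**Figure D2:**
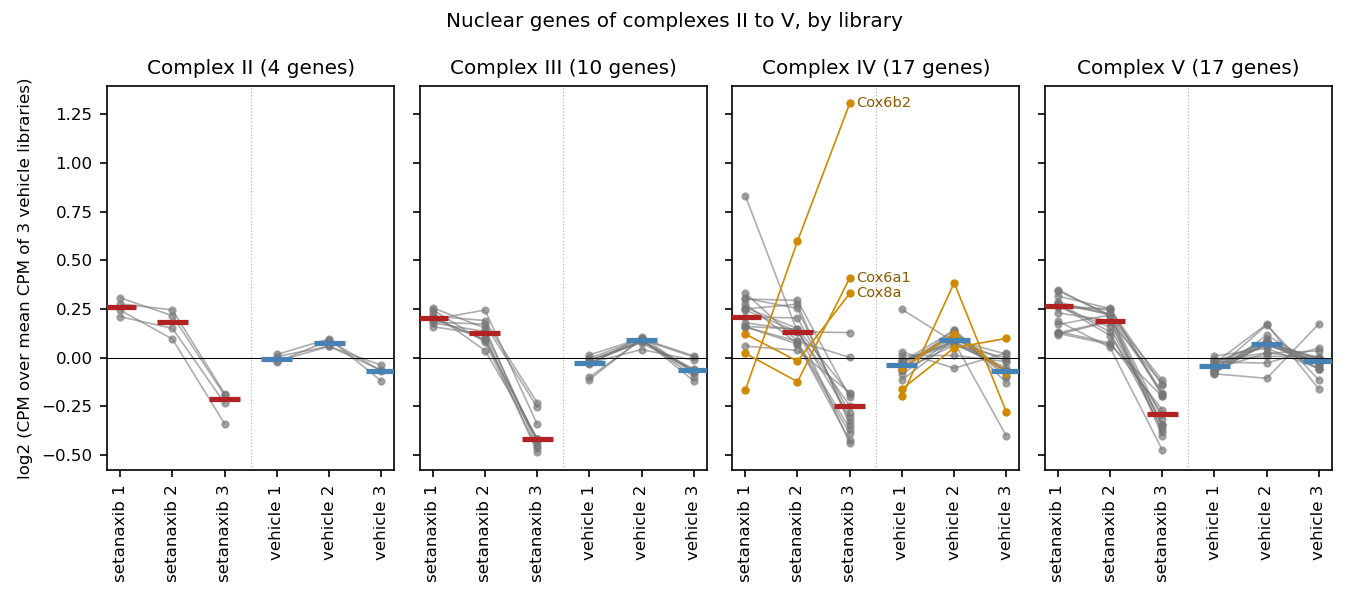
Log2 of each gene's CPM over its mean in the 3 vehicle libraries, by library and complex. Each point is a gene, thin lines join the libraries of a group for the same gene, and bars mark the median of the complex (red setanaxib, blue vehicle). Points of setanaxib replicate 3 are the lowest for 43 of 48 genes; Cox6b2, Cox6a1 and Cox8a (orange) are highest there, and Cox7a2 and Cox6c2 are lowest in a vehicle library.

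The place of setanaxib replicate 3 depended on the scale. On total counts, without the TMM factors, the set's medians were 0.07, 0.10 and −0.03 in setanaxib replicates 1, 2 and 3 and −0.01, 0.02 and −0.00 in the vehicle libraries, and setanaxib replicate 3 was lowest for 21 of 48 genes. On that scale the median of all genes moved instead, standing at 0.29 in setanaxib replicate 3 and at −0.16 in the first. With DESeq2 size factors, upper quartile scaling or TMM without the mitochondrial genome, setanaxib replicate 3 was again lowest for 43 of 48 genes. Relative to all genes, then, the set was low in setanaxib replicate 3 on each scale, and its share of all counts there was near that of the vehicle libraries.

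Other gene groups moved with the set in that library. On the TMM scale, 36 subunits of complex I, which feeds electrons from NADH into the chain, had a median of −0.39 in setanaxib replicate 3, and 35 of the 36 were lowest there. The 6 mitochondrially encoded subunits of complexes III to V had a median of −0.64 and were all lowest there. Cardiomyocyte markers had a median of −0.46, with 10 of 12 lowest there. Their summed level was 72869 to 103000 CPM in the setanaxib and 94581 to 98612 CPM in the vehicle libraries, with the lowest setanaxib value in setanaxib replicate 3. In setanaxib replicates 1 and 2 the median of the cardiomyocyte markers was 0.04 in each. Mybpc3 and Actc1, 2 of the 12 (16.7%), were lower without overlap in the setanaxib group, where 9.46% of all genes were. The 3 atrial markers summed to 66.5, 108 and 2914 CPM in setanaxib replicates 1, 2 and 3 and to 121 to 568 CPM in the vehicle libraries. The 6 adipocyte markers summed to 167 to 279 CPM in the setanaxib and 151 to 180 CPM in the vehicle libraries, most of it Fabp4, which endothelial cells also express. Cfd stood at 49.4 CPM in setanaxib replicate 3, against at most 0.52 CPM in the other setanaxib libraries and at most 2.17 CPM in the vehicle libraries. Plin1 stood at 8.71 CPM and Retn at 4.25 CPM there; in the other setanaxib libraries both were at 0, and in the vehicle libraries they reached at most 0.07 CPM for Plin1 and 0.56 CPM for Retn. Adipoq and Lep were at 0 in every library other than setanaxib replicate 3, where they stood at 0.09 and 1.09 CPM. In the 6-marker brown adipocyte list, which also holds the regulator Ppargc1a and summed to 155 to 161 CPM in the setanaxib and 133 to 145 CPM in the vehicle libraries, Ucp1 was at 10.3 CPM in setanaxib replicate 3, at 0 in the other setanaxib libraries and at most 0.21 CPM in the vehicle libraries, and Elovl3 was at 0 throughout. The part of these cell types in the levels of the set was not tested. In these bulk samples, fewer cells of a type and less RNA per cell cannot be told apart.

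**Figure D3:**
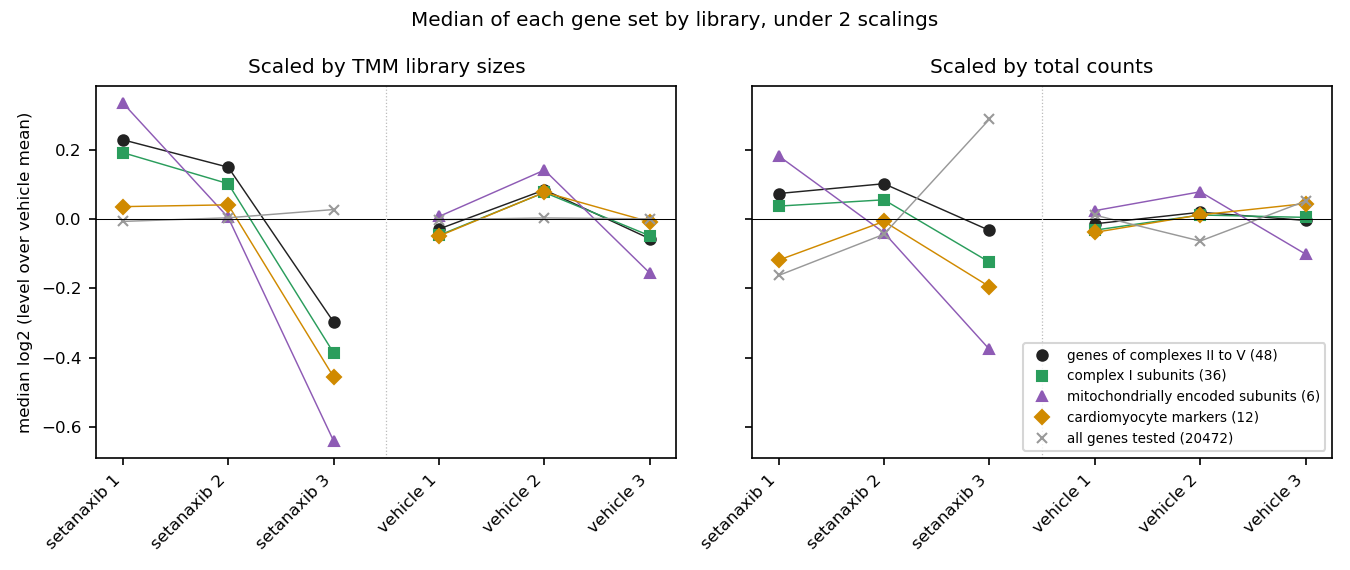
Median log2 level over the vehicle mean in each library for the set, complex I subunits, mitochondrially encoded subunits, cardiomyocyte markers and all genes tested, on TMM library sizes (left) and on total counts (right). The set stands at −0.30 in setanaxib replicate 3 on the TMM scale and at −0.03 on total counts, where all genes stand at 0.29.

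Without setanaxib replicate 3, 47 of 48 genes had a positive log2 fold change, with a median of 0.20, beside −0.00 over all genes. At an unadjusted p under 0.05, 22 of 48 were higher in the setanaxib group, where 5.67% of all genes were. None passed the adjustment over all genes (smallest adjusted p 0.228), and 0.00479% of all genes did. The 22 were 3 of 4 genes of complex II, 3 of 10 of complex III, 5 of 17 of complex IV and 11 of 17 of complex V. Cox6a1 was the gene below 0. That fit holds 2 setanaxib and 3 vehicle libraries. Leaving out setanaxib replicate 1 instead gave a median of −0.05, with 14 genes above 0 and 34 below, and leaving out setanaxib replicate 2 gave −0.01. The direction of the set as a whole therefore depended on which setanaxib libraries were kept.

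**Figure D4:**
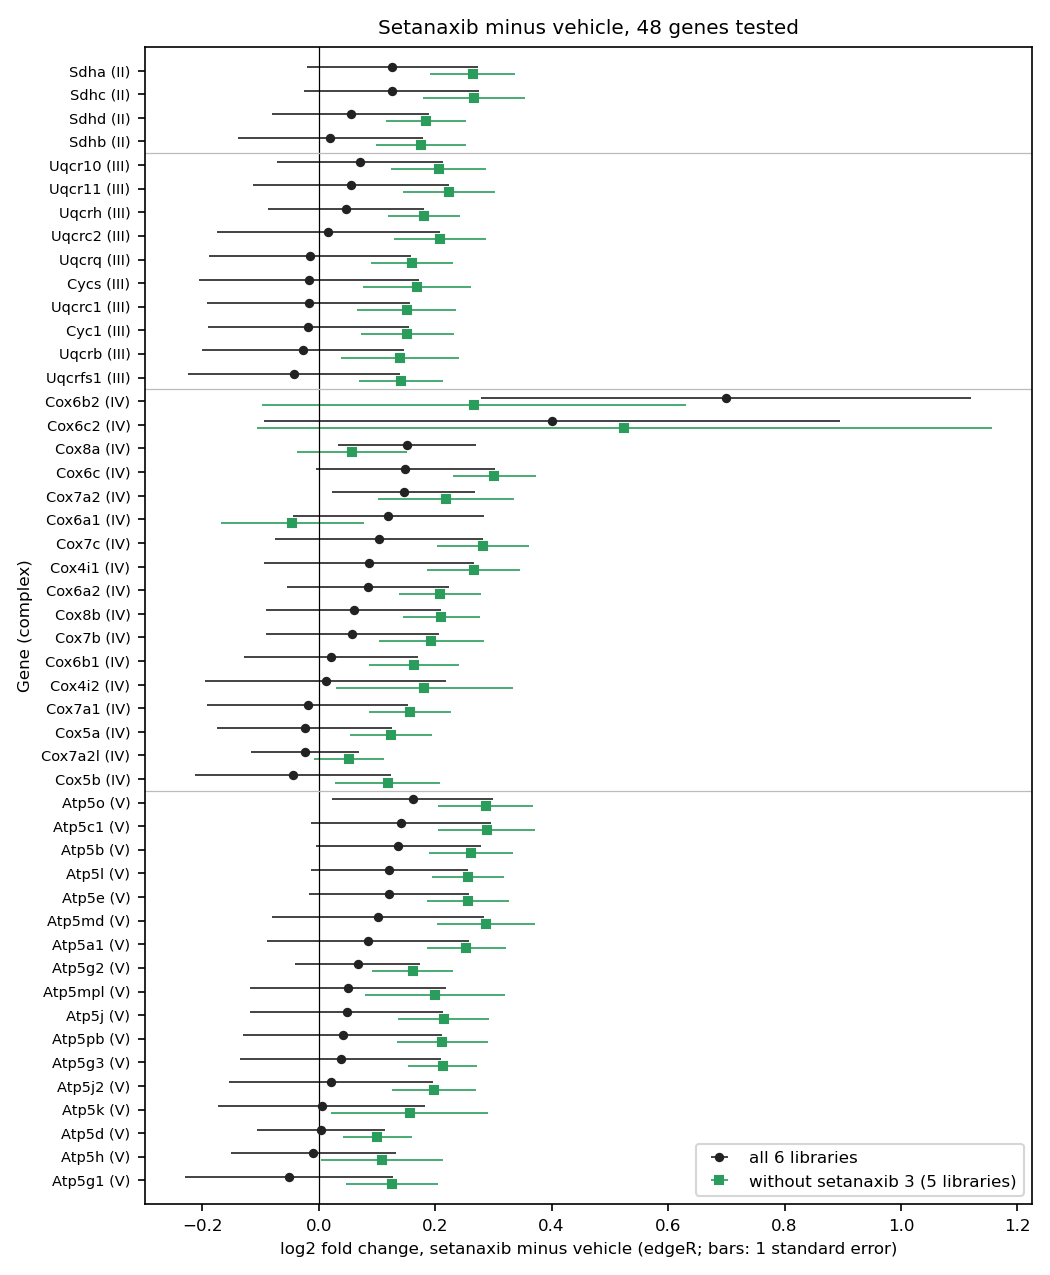
Log2 fold change, setanaxib minus vehicle, of the 48 tested genes from all 6 libraries (black circles) and without setanaxib replicate 3 (green squares); bars are 1 standard error. The median is 0.05 from all 6 libraries and 0.20 without that library, where Cox6a1 is the gene below 0.

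Complex II, succinate dehydrogenase, showed the pattern in all 4 subunits. The flavoprotein Sdha, which oxidises succinate, had 678, 663 and 492 CPM in setanaxib replicates 1, 2 and 3, against 551, 595 and 533 CPM in vehicle replicates 1, 2 and 3. The first 2 setanaxib libraries were above every vehicle library and the third below them, so the groups overlapped. The log2 fold change was 0.13 (SE 0.15, edgeR adjusted p = 0.878) with all libraries and 0.26 (SE 0.07, adjusted p = 0.265) without setanaxib replicate 3. The iron-sulfur subunit Sdhb had 434, 392 and 290 CPM in setanaxib and 362, 382 and 357 CPM in vehicle libraries, with a log2 fold change of 0.02 (SE 0.16). The membrane anchors, which bind ubiquinone, showed the same order of libraries. Sdhc had 319, 300 and 226 CPM in setanaxib against 261, 276 and 238 CPM in vehicle libraries. Sdhd had 232, 222 and 170 CPM in setanaxib against 201, 209 and 191 CPM in vehicle libraries. Their log2 fold changes were 0.13 for Sdhc and 0.05 for Sdhd. The 4 assembly factors Sdhaf1 to Sdhaf4 had fold changes below 0, with a median of −0.11, and 0 of 4 passed at an unadjusted p under 0.05. Sdhaf4, which assists the joining of Sdha to Sdhb, had 6.68, 6.24 and 3.75 CPM in setanaxib and 7.39, 7.19 and 6.63 CPM in vehicle libraries (log2 fold change −0.35, SE 0.23).

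Complex III and cytochrome c had the lowest median of the 4 groups, −0.02, with 4 genes above 0 and 6 below. The Rieske iron-sulfur protein Uqcrfs1, which carries electrons to cytochrome c1, had 305, 296 and 195 CPM in setanaxib and 268, 290 and 262 CPM in vehicle libraries. Here too setanaxib replicates 1 and 2 were above all vehicle libraries and replicate 3 was the lowest of the 6. Its log2 fold change was −0.04 (SE 0.18, edgeR adjusted p = 0.978), and 0.14 without setanaxib replicate 3. The core protein Uqcrc1 had 537, 499 and 351 CPM in setanaxib and 457, 504 and 443 CPM in vehicle libraries. In 3 small subunits setanaxib replicates 1 and 2 were again above all vehicle libraries and replicate 3 below them. Uqcr10 had 169, 167 and 124 CPM in setanaxib and 135, 156 and 147 CPM in vehicle libraries. The hinge protein Uqcrh had 120, 119 and 88.5 CPM in setanaxib against 103, 109 and 105 CPM in vehicle libraries, and Uqcr11 had 119, 123 and 82.2 CPM in setanaxib against 97.1, 111 and 104 CPM in vehicle libraries. Cytochrome c itself, Cycs, had 255, 227 and 156 CPM in setanaxib and 215, 230 and 201 CPM in vehicle libraries. The median ratio of setanaxib replicate 3 to the mean of setanaxib replicates 1 and 2 was 0.675 over this complex, 0.732 over complex II, 0.725 over complex IV and 0.714 over complex V. Of 6 assembly factors, 0 had an unadjusted p under 0.05. In Uqcc3, which helps to build cytochrome b into the complex, the groups did not overlap: 9.88, 10.8 and 9.17 CPM in setanaxib against 11.5, 12.7 and 11.6 CPM in vehicle libraries (log2 fold change −0.26, SE 0.11, edgeR adjusted p = 0.611). Lower groups without overlap were found for 9.46% of all genes.

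Complex IV, cytochrome c oxidase, held the genes that went another way in setanaxib replicate 3. Of its 17 tested genes, 12 were lowest there. The isoforms Cox6b2, Cox8a and Cox6a1 were highest there, and Cox7a2 and Cox6c2 were lowest in a vehicle library. Cox6a1, Cox7a2 and Cox8a are the widely expressed isoforms of subunits whose muscle isoforms are Cox6a2, Cox7a1 and Cox8b. Cox6c2 rests on as few as 10 counts in a library.

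The promoters of these isoforms, the windows from 250 bases before to 50 after the annotated start in RefSeq on GRCm38.p6, are printed to show how the muscle and the widely expressed isoform of a subunit differ in sequence, with Sdha, a gene that followed the main pattern, beside them. Capitals mark matches on either strand to 5 motifs. That of NRF1 is GCGC, any pair of bases and GCGC again, the same on either strand. That of ETS factors such as Gabpa is CCGGAAG. Estrogen-related receptors have AAGGTCA, the binding site of the TATA-box protein has TATAAA and the E-box of muscle factors has CAGCTG. No marked matches overlap one another.
Cox6a1 (chr5:115348909-115349208, minus strand): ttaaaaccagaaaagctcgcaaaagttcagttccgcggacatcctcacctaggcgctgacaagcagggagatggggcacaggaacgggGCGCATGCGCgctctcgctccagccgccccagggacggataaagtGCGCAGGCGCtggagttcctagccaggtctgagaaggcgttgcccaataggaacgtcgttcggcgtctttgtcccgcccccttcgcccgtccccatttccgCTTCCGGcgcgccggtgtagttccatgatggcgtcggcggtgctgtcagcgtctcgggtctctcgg
Cox7a2 (chr9:79759804-79760103, minus strand): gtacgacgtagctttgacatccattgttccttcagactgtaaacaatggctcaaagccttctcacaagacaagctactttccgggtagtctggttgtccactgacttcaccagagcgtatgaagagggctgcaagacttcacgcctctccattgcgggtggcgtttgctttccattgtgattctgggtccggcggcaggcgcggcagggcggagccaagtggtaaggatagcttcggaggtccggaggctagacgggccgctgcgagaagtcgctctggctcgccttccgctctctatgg
Cox7a1 (chr7:30183921-30184220, plus strand): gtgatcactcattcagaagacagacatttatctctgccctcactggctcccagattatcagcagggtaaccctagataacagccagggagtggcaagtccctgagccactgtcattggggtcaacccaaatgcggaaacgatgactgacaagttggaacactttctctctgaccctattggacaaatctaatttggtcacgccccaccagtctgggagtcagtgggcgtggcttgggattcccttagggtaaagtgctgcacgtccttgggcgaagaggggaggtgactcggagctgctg
Cox8a (chr19:7217567-7217866, minus strand): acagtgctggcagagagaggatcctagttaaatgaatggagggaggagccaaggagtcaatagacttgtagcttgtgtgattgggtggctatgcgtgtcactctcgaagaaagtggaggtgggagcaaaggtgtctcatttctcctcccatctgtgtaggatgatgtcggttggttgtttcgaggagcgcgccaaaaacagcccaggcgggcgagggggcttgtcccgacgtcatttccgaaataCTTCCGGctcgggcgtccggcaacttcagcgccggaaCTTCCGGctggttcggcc
Cox8b (chr7:140900397-140900696, minus strand): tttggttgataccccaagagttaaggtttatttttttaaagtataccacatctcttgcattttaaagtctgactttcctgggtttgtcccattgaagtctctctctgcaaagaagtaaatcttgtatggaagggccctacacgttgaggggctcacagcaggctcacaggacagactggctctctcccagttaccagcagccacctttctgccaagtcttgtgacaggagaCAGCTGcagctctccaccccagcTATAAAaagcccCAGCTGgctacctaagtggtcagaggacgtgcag
Sdha (chr13:74350191-74350490, minus strand): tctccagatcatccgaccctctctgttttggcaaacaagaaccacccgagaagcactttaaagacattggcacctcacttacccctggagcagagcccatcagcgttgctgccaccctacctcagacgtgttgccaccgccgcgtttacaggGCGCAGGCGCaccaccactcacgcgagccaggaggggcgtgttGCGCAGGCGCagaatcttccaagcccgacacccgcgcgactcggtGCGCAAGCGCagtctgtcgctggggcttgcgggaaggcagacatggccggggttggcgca
The Cox6a1 window holds 2 NRF1 matches and 1 ETS match, that of Cox8a 2 ETS matches and that of Sdha 3 NRF1 matches. The Cox8b window holds 1 TATAAA and 2 E-boxes and none of the other motifs, and those of Cox7a1 and Cox7a2 hold none of the 5. CG dinucleotides number 2 in Cox8b and 7 in Cox7a1, against 19 in Cox8a, 20 in Cox7a2 and 32 in Cox6a1.

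RefSeq windows were found for 36 of the 48 tested genes, 39 windows in all; Cox6a2 is among those without an entry. The NRF1 motif occurred in 10 of the 39 (25.6%), against 6.23% of all 32851 promoter windows, and the ETS motif in 13 (33.3%), against 8.86%. The motif of estrogen-related receptors occurred in 5 (12.8%) against 4.72%, TATAAA in 3 (7.69%) against 13.6% and the E-box in 2 (5.13%) against 16.3%. A match describes letters in the window and not binding. The windows compared were not matched for CG content, in which the printed promoters differ, and its part in these shares was not tested. The motif strings were chosen by hand, and a motif of YY1 was also searched and then left out.

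The muscle isoform Cox6a2 had 1697, 1574 and 1247 CPM in setanaxib and 1449, 1367 and 1443 CPM in vehicle libraries, with setanaxib replicate 3 lowest (log2 fold change 0.08, SE 0.14, edgeR adjusted p = 0.920). Its widely expressed counterpart Cox6a1 had 16.2, 14.6 and 21.1 CPM in setanaxib and 14.2, 16.5 and 17.1 CPM in vehicle libraries, with setanaxib replicate 3 highest. Per length, Cox6a2 was 88.1, 90.4 and 49.5 times Cox6a1 in setanaxib replicates 1, 2 and 3, and 85.5, 69.6 and 71.0 times in vehicle replicates 1, 2 and 3. On the log2 scale of CPM the ratio averaged 6.45 ± 0.49 in the setanaxib and 6.48 ± 0.16 in the vehicle group (SD, n = 3 each), a difference of −0.03 (exact permutation test, two-sided p = 1). A ratio within a library does not depend on library scaling, so the low ratio of setanaxib replicate 3 is the same on every scale.

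In subunit 8, too, setanaxib replicate 3 was lowest for the muscle isoform and highest for the widely expressed one. The muscle isoform Cox8b had 194, 193 and 137 CPM in setanaxib and 165, 176 and 162 CPM in vehicle libraries, while Cox8a had 81.4, 73.9 and 94.1 CPM in setanaxib against 72.2, 81.5 and 71.0 CPM in vehicle libraries. The log2 ratio of Cox8b over Cox8a was 1.25, 1.38 and 0.55 in setanaxib and 1.20, 1.11 and 1.19 in vehicle libraries. Setanaxib replicates 1 and 2 were above all vehicle libraries and setanaxib replicate 3 was below them (difference −0.10, exact permutation p = 1). For subunit 7a the log2 ratio of Cox7a1 over Cox7a2 was −0.18, 0.06 and −0.44 in setanaxib and 0.04, −0.07 and 0.02 in vehicle libraries (difference −0.19, exact permutation p = 0.4). Cox7a1 had 134, 132 and 88.3 CPM in setanaxib and 119, 126 and 114 CPM in vehicle libraries, and Cox7a2 had 151, 127 and 120 CPM in setanaxib against 115, 133 and 113 CPM in vehicle libraries. In each of these 3 muscle pairs the lowest ratio of the 6 libraries was that of setanaxib replicate 3, the library with the high atrial markers; the part of the atrial markers in this was not tested.

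Cox4i1, Cox4i2, Cox6c and Cox6b1 were lowest in setanaxib replicate 3, as most of the set was. Cox4i1, the main isoform of subunit 4, had 247, 251 and 164 CPM in setanaxib and 192, 221 and 210 CPM in vehicle libraries. Its counterpart Cox4i2, induced by low oxygen in other cells, had 5.06, 4.39 and 3.19 CPM in setanaxib against 4.11, 4.60 and 3.81 CPM in vehicle libraries, and the log2 ratio of the pair differed by −0.07 (exact permutation p = 0.5). Cox6c had 199, 198 and 140 CPM in setanaxib and 159, 171 and 154 CPM in vehicle libraries, and without setanaxib replicate 3 its log2 fold change of 0.30 (SE 0.07) had the smallest adjusted p of the set, 0.228. Cox6b1 had 344, 336 and 247 CPM in setanaxib and 297, 327 and 290 CPM in vehicle libraries. Cox6b2, a subunit best known from sperm, was instead highest in setanaxib replicate 3. It had 0.85, 1.45 and 2.36 CPM in setanaxib and 0.83, 1.25 and 0.79 CPM in vehicle libraries, the largest fitted log2 fold change of the set at 0.70 (SE 0.42, edgeR adjusted p = 0.716). Without setanaxib replicate 1 it had an unadjusted edgeR p of 0.0292, higher in the setanaxib group. It was the 1 gene of the set under 0.05 in that fit, where 4.78% of all genes were higher at that p. The log2 ratio of Cox6b2 over Cox6b1 differed by 0.60 (exact permutation p = 0.5), and by 0.08 without setanaxib replicate 3.

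**Figure D5:**
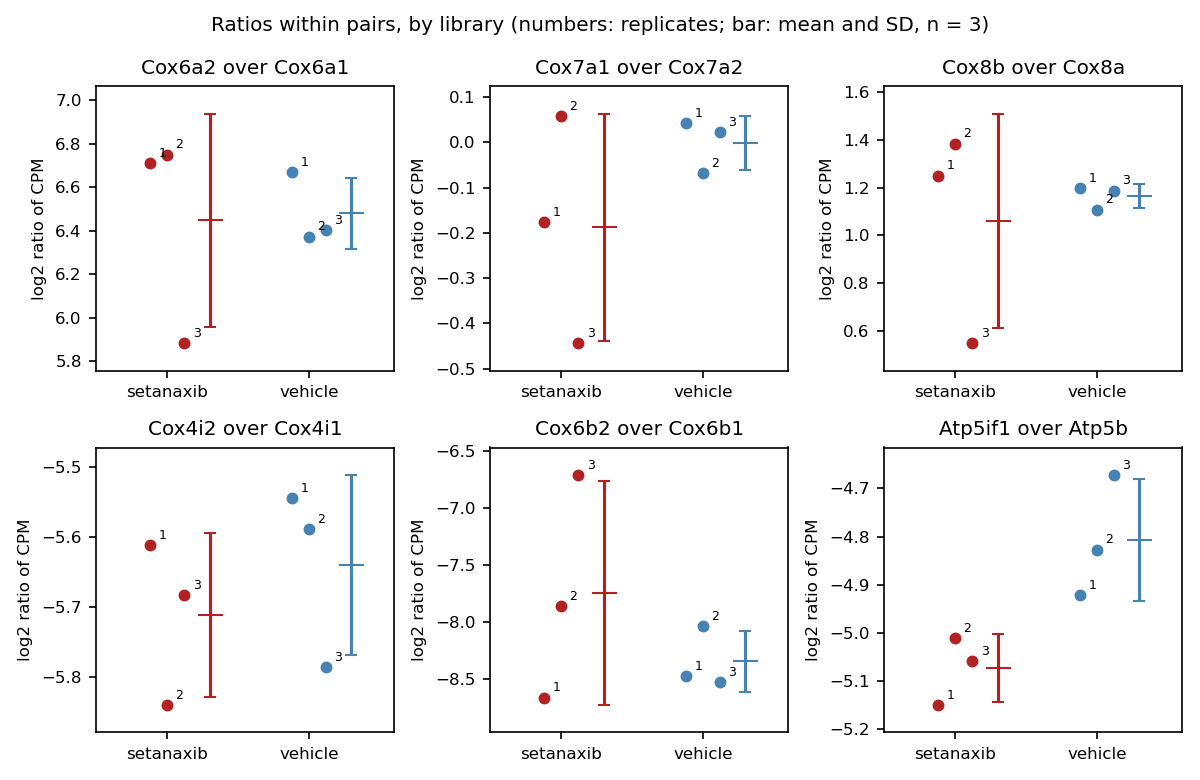
Log2 ratio of CPM within each pair, by library, setanaxib (red) left of vehicle (blue); numbers mark replicates, and the bar at the side is the mean and SD of 3 libraries. Setanaxib replicate 3 has the lowest ratio for the 3 muscle isoforms, and Atp5if1 over Atp5b is the pair whose groups do not overlap.

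Of 24 complex IV assembly factors, 7 had a fold change above 0 and 17 below, with a median of −0.10, and 0 had an unadjusted p under 0.05. Coa5 had 107, 114 and 79.7 CPM in setanaxib and 119, 131 and 120 CPM in vehicle libraries, so the groups did not overlap (log2 fold change −0.30, SE 0.15, edgeR adjusted p = 0.655). Of the 24 factors, 12.5% had groups without overlap, 2 lower and 1 higher in the setanaxib group, against 17.6% of all genes. Cox19, needed for assembly of the enzyme in yeast, had 21.1, 16.1 and 16.3 CPM in setanaxib against 20.2, 26.1 and 21.1 CPM in vehicle libraries (log2 fold change −0.33, SE 0.16). Sco1, a copper chaperone, had 8.85, 10.02 and 7.92 CPM in setanaxib against 11.3, 11.1 and 9.25 CPM in vehicle libraries.

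Complex V, the ATP synthase, had a median log2 fold change of 0.05, with 15 of 17 genes above 0, and all 17 were lowest in setanaxib replicate 3. In the F1 head, Atp5b had 2037, 2020 and 1540 CPM in setanaxib and 1629, 1804 and 1659 CPM in vehicle libraries. Its log2 fold change was 0.14 (SE 0.14, edgeR adjusted p = 0.859) with all libraries and 0.26 (SE 0.07, adjusted p = 0.264) without setanaxib replicate 3. The alpha subunit Atp5a1 had 2082, 2012 and 1384 CPM in setanaxib and 1676, 1804 and 1687 CPM in vehicle libraries, and the gamma subunit Atp5c1, the rotating shaft, 332, 317 and 232 CPM in setanaxib against 252, 288 and 259 CPM in vehicle libraries. The 5 F1 genes had a median of 0.12, the 4 tested stalk genes 0.04 and the 8 membrane-part genes 0.04. In the stalk, Atp5o had 520, 476 and 378 CPM in setanaxib and 400, 436 and 393 CPM in vehicle libraries, with a log2 fold change of 0.16 (SE 0.14, adjusted p = 0.816). On total counts Atp5o had an unadjusted edgeR p of 0.0363, higher in the setanaxib group. It was the 1 gene of the set under 0.05 on that scale, where 2.99% of all genes were higher at that p. In the membrane part, Atp5l had 127, 126 and 93.7 CPM in setanaxib against 105, 104 and 110 CPM in vehicle libraries. The c-ring genes, which encode the same mature protein, differed in level. Mean CPM in the setanaxib and the vehicle group was 544 and 530 for Atp5g3, 340 and 352 for Atp5g1 and 43.9 and 41.9 for Atp5g2. Per kilobase of transcript, Atp5g3 stood at 752 CPM in the setanaxib and 732 CPM in the vehicle group. Atp5g1 stood at 72.1 in the setanaxib and 74.7 in the vehicle group, and Atp5g2 at 60.0 in the setanaxib and 57.3 in the vehicle group. The lengths used were 723 bases for Atp5g3, 4715 for Atp5g1 and 731 for Atp5g2. Which transcripts are in use is not known, so the place of Atp5g1 per kilobase is uncertain.

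The inhibitor of the ATP synthase, Atp5if1, listed in the table as Atpif1, had 57.4, 62.6 and 46.2 CPM in setanaxib and 53.7, 63.5 and 65.1 CPM in vehicle libraries. Its log2 ratio to Atp5b was −5.15, −5.01 and −5.06 in setanaxib and −4.92, −4.83 and −4.67 in vehicle libraries. Every setanaxib library was below every vehicle library, by −0.27 on average, also as large without setanaxib replicate 3 (−0.27). The exact permutation p of 0.1 is the smallest that 3 against 3 libraries can give, and adjusted over the 6 ratios compared it was 0.6. Of 5 assembly factors of complex V, 2 had a fold change above 0 and 3 below, and 0 had an unadjusted p under 0.05. Atpaf1, a chaperone of the beta subunit, had 42.4, 42.6 and 31.0 CPM in setanaxib and 42.3, 45.9 and 39.3 CPM in vehicle libraries.

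The subunits encoded by the mitochondrial genome, which join these nuclear ones, were wider in spread. The catalytic subunit mt-Co1 had 128384, 107407 and 72185 CPM in setanaxib and 105891, 116295 and 93870 CPM in vehicle libraries. Of the 6 genes of complexes III to V, 1 had a fold change above 0 and 5 below, with a median of −0.04 and 0 with an unadjusted p under 0.05. The mitochondrial genome as a whole took 30.0%, 25.5% and 20.5% of all counts in setanaxib replicates 1, 2 and 3 and 26.0%, 26.8% and 23.5% in vehicle replicates 1, 2 and 3. Complex I subunits had a median of −0.00, with 15 of 36 above 0 and 0 with an unadjusted p under 0.05; without setanaxib replicate 3 the median was 0.15, with 7 of 36 higher at that p, where 5.67% of all genes were.

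Regulators of the chain showed no call either. Of 12, 8 had a fold change above 0 and 0 had an unadjusted p under 0.05. Ppargc1a, the coactivator that drives mitochondrial biogenesis, had 120, 125 and 96.0 CPM in setanaxib and 86.6, 96.9 and 97.4 CPM in vehicle libraries (log2 fold change 0.28, SE 0.12, edgeR adjusted p = 0.622). As for the subunits, setanaxib replicates 1 and 2 were above all vehicle libraries and replicate 3 was not. Perm1, a muscle regulator of the same program, had 342, 300 and 204 CPM in setanaxib and 349, 363 and 331 CPM in vehicle libraries (log2 fold change −0.30, SE 0.19), and Pprc1, a relative of Ppargc1a, had 27.1, 23.4 and 23.3 CPM in setanaxib against 24.6, 36.0 and 28.8 CPM in vehicle libraries. Gabpa, which binds ETS motifs, had 27.4, 27.1 and 26.8 CPM in setanaxib and 23.3, 25.7 and 26.0 CPM in vehicle libraries. The groups did not overlap, and higher groups without overlap were found for 8.11% of all genes. Gabpa shares 397 exon bases with Atp5j on the opposite strand. Strand is not given for these libraries, so the values of Gabpa are uncertain.

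No marker of the cell types that follow passed edgeR's adjusted threshold. All 10 macrophage markers had groups that did not overlap, lower in the setanaxib group, where 9.46% of all genes had, and all 10 had an unadjusted p under 0.05, where 4.69% of all genes were lower at that p (smallest edgeR adjusted p 0.314). DESeq2 called 7 of the 10, beside 2.41% of all genes. They summed to 226 to 280 CPM in setanaxib and 360 to 460 CPM in vehicle libraries. The 8 fibroblast markers, 5 of them lower without overlap (smallest edgeR adjusted p 0.234; 3 called by DESeq2), summed to 624 to 1055 CPM in setanaxib and 1062 to 1415 CPM in vehicle libraries. The 8 skeletal muscle fibre markers summed to 11.3 to 140 CPM in setanaxib and 484 to 622 CPM in vehicle libraries. Nearly all of this was Acta1, which heart muscle also expresses, at 10.7 to 139 CPM in setanaxib and 483 to 622 CPM in vehicle libraries. Of the 3 tested markers, Acta1 had a fold change below 0, and 2, Mylpf and Tnni2, were above 0. Mylpf was higher without overlap, where 8.11% of all genes were. It had 0.24 to 0.30 CPM in setanaxib and 0.12 to 0.18 CPM in vehicle libraries, on 16 to 38 counts. The fast myosins Myh1, Myh2 and Myh4 were at 0 in every library. The 8 endothelial markers, 1 of them lower without overlap, summed to 552 to 718 CPM in setanaxib and 731 to 816 CPM in vehicle libraries. The 8 smooth muscle and pericyte markers, 3 of them lower without overlap and 1 called by DESeq2, summed to 552 to 813 CPM in setanaxib and 751 to 911 CPM in vehicle libraries, and the 6 red blood cell markers to 3299 to 4843 CPM in setanaxib and 2764 to 5240 CPM in vehicle libraries. Their part in the levels of the set was not tested.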

How the data were processed

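RNA was measured in 6 mouse heart libraries, 3 after setanaxib and 3 after vehicle. Per the labels' protocols, 1 µg of total RNA went into each library, read as paired ends of 150 bases. The values deposited by the authors are estimated counts per gene, whole numbers whose totals differ between the libraries. Per library, 30 to 40 genes held a count of 1 and 157 to 188 a count of 2, so a count need not equal 1 read. Raw counts had been assumed when the tests were chosen; the same tests were kept, and no rounding was needed. The submitters' processing notes name STAR 2.5.4b, featureCounts 2.0.1, FastQC 0.11.9, DESeq2 1.42.0 and the build GRCm39 but not which tool did what. Names have the form of StringTie's count script, per the file headers. Strand and the handling of reads with several matches are not given in the sources used here, so the values of the 14 tested genes that share exon bases with another annotated gene (among them Cox6a2, Cox4i1, Cox6c, Atp5a1, Atp5o and Uqcrc2) and of genes with processed pseudogenes are uncertain.

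In R 4.3.3, genes were kept with filterByExpr (minimum count 10), scaled by TMM and tested with edgeR 4.0.16 (quasi-likelihood F test, group only, two-sided, Benjamini-Hochberg over 20472 genes, threshold 0.05). DESeq2 1.42.0, limma-voom (limma 3.58.1), other scalings, no filter and leaving out each library were alternatives. The edgeR code was tested on simulated data. Isoform ratios were compared by exact permutation over all 20 splits. Transcript lengths are those of the principal transcript in GENCODE M21 (GRCm38), used only as lengths; promoters are from RefSeq on GRCm38.p6. At these depths a gene at 1 CPM rests on about 100 estimated counts or more, and the spread between libraries limits the comparisons of such genes. Judged by estimated counts, counting error alone is not their limit, while Cox6c2 rests on as few as 10 of them in a library.

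Genes named are, per complex, the 4 of lowest unadjusted p, both genes of isoform pairs above 1 CPM, the most abundant gene of each complex and up to 3 genes per pathway list; Atp5a1, Cycs, mt-Co1, Gabpa and the c-ring genes were added after their values were seen. The genes and lists were chosen with earlier results of these data known. Of the pathway genes sought, Uqcc4, Uqcc5, Uqcc6 and Pet117 are not analysed here.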

Additional observations from a re-analysis of the deposited data

How the results depend on the processing

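The number of genes of the set past the adjusted threshold was 0 under every alternative run: 3 other scalings, TMM without the mitochondrial genome, no filter on low counts, DESeq2, limma-voom and leaving out each library. The same held for the pathway lists. Over all genes, edgeR called 1, DESeq2 494 and limma-voom 0, and leaving out a library gave 0 to 1; the cause was not tested. At an unadjusted p under 0.05, the genes of the set higher in the setanaxib group numbered 0 with all libraries, 1 on total counts and 0 to 22 when a library was left out, with 22 without setanaxib replicate 3. Of all genes, 3.76% were higher at that p with all libraries and 2.99% on total counts. When a library was left out, 1.77% to 5.67% of all genes were, with 5.67% without setanaxib replicate 3. The set's median log2 fold change was 0.05, between 0.04 and 0.08 under the other scalings and tests, and between −0.05 and 0.20 when a library was left out. Upper quartile scaling put 45 of the 48 genes above 0, where TMM put 36.

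Small fold changes turned sign. Upper quartile scaling gave 0.0135 for Uqcrc1, 0.0116 for Cox7a1 and 0.0139 for Tmem70, and limma-voom gave −0.0146 for Cox4i2. When a library was left out, log2 fold changes ran from −0.0348 to 0.18 for Sdhd, −0.11 to 0.18 for Sdhb, −0.0106 to 0.21 for Uqcr10, −0.0312 to 0.18 for Uqcrh, −0.0491 to 0.22 for Uqcr11, −0.16 to 0.14 for Uqcrfs1, −0.14 to 0.15 for Uqcrc1, −0.0451 to 0.23 for Cox6a1, −0.0147 to 0.21 for Cox6a2, −0.0181 to 0.27 for Cox4i1, −0.0257 to 0.21 for Cox8b, −0.0693 to 0.16 for Cox6b1, −0.12 to 0.16 for Cox7a1 and −0.15 to 0.18 for Cox4i2. In the lists they ran from −0.31 to 0.0663 for Ndufc2, −0.30 to 0.12 for mt-Co2, −0.27 to 0.17 for mt-Co3, −0.35 to 0.22 for mt-Atp8, −0.19 to 0.0022 for Sdhaf2, −0.31 to 0.0515 for Sdhaf3, −0.21 to 0.0041 for Atpaf1, −0.17 to 0.18 for Tmem70 and −0.0282 to 0.13 for Fmc1. The ratio of Cox6a2 over Cox6a1 ran from −0.18 to 0.25 and that of Cox8b over Cox8a from −0.27 to 0.15, both highest without setanaxib replicate 3.

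No paired analysis was possible because the labels give no number shared between the groups. With 3 libraries a group, differences of the size seen here could not be told from the spread between libraries. Setanaxib replicates 1 and 3 were both further from the vehicle libraries than those were from each other. Judged by estimated counts, depth was not the limit, apart from Cox6c2, which rests on as few as 10 of them in a library.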
